A study of Mus musculus with 12 samples.

Results

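The genes described here are 36 cell cycle genes, measured in 2 mouse tissues, spleen and axillary lymph node. They were chosen by their known phase of action, at a time when earlier results of these data were known. Of these, 15 act in DNA replication (Mcm2, Mcm3, Mcm4, Mcm5, Mcm6, Mcm7, Pcna, Rrm1, Rrm2, Tyms, Ccne1, Ccne2, Cdc6, Cdt1 and E2f1) and 21 act in mitosis (Mki67, Top2a, Ccnb1, Ccnb2, Cdk1, Bub1, Bub1b, Aurka, Aurkb, Plk1, Birc5, Ccna2, Kif11, Foxm1, Cdc20, Tpx2, Nusap1, Cenpe, Cenpf, Ttk and Kif20a). Each was found as 1 row among the 23284 gene rows of each tissue's count table, and all 36 passed the filter on low counts in every comparison. Poly(A) RNA was sequenced from 12 libraries, 3 in each of 4 groups. All mice were 30 weeks old, were fed normal laboratory diet and lacked both apoE and apoA-I, the main proteins of remnant lipoproteins and of high-density lipoprotein. The groups labelled DKO carried only this double deficiency, and the groups labelled DKO/hA-I were double deficient mice that also overexpressed human apoA-I. Which promoter drives the human gene is not stated in the labels. Each library has its own animal code, and the spleens and lymph nodes come from different animals, so tissue and whatever else differed between the collections cannot be told apart. There was no group with mouse apoA-I or apoE intact.

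Cells that divide first license and copy their DNA and then separate it. In the replication step Cdc6 and Cdt1 load the ring of Mcm2 to Mcm7 onto origins, E2f1 and the partners of Cdk2 encoded by Ccne1 and Ccne2 start synthesis, Pcna clamps the polymerase to DNA, and Rrm1, Rrm2 and Tyms supply nucleotides. In mitosis Cdk1 with the products of Ccna2, Ccnb1 and Ccnb2 drives entry, Plk1 and the Aurora kinases build the spindle, and Cdc20 activates the complex that ends the phase. In adult mice the spleen makes red blood cells as well as housing lymphocytes, whereas division in a lymph node is mostly that of activated lymphocytes. In whole tissue, more cells in division and more RNA per dividing cell cannot be told apart.

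The DNA around the RefSeq starts of the genes carries different short motifs in the 2 phases. For that reason 2 genes of each phase are shown. They are the first in order of the adjusted p of the spleen and lymph node comparison among the replication genes that hold the E2F motif and the mitosis genes that hold both the CHR and the CCAAT motif, all defined below. A 300-base window around the start (250 bases before to 50 after, RefSeq, GRCm38.p6) was found for 29 of the 36 members, 13 of replication and 16 of mitosis. The stretch printed here for each runs from 170 bases before the start to 30 after, 5′ to 3′ on the gene's strand. The first listed window of each gene was used, and for Mcm7 2 windows are listed. The windows of Cdc6, Mcm7 and E2f1 lie wholly inside the span of the gene in GENCODE release 21 of the mouse.

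Stretches around the RefSeq start of 2 replication genes follow, with E2F motifs in capitals.
Cdc6 (chr11:98907981-98908180, plus strand): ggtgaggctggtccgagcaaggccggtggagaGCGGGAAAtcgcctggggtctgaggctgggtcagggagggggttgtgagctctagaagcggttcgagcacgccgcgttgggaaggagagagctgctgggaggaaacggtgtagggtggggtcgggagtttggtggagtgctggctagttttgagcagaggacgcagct
Mcm7 (chr5:138171854-138172053, minus strand): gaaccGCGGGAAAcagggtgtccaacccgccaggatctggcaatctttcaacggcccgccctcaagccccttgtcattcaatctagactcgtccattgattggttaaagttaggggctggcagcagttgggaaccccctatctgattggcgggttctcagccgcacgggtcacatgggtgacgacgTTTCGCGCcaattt

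The promoters of 2 mitosis genes follow, with the cell cycle homology region (CHR) and CCAAT motifs in capitals.
Ccnb2 (chr9:70421525-70421724, minus strand): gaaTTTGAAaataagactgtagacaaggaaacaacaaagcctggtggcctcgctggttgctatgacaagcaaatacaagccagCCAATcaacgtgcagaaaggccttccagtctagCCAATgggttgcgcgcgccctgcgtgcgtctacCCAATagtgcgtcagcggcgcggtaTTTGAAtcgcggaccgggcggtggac
Plk1 (chr7:122159265-122159464, plus strand): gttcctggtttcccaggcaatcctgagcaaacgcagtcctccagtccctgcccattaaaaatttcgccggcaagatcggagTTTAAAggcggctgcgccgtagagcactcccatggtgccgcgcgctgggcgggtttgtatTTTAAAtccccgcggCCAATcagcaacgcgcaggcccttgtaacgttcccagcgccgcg

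All motifs were searched as exact letters on both strands over the whole 300-base window. The E2F motif was TTTCCCGC, TTTCGCGC, TTTGCCGC or TTTGGCGC. It was present in 6 of the 13 replication windows (46.2%), in 1 of the 16 mitosis windows (6.25%) and in 2.32% of all 27025 RefSeq promoter windows. The CHR motif, TTTGAA or TTTAAA, was present in 14 of 16 mitosis windows (87.5%), in 4 of 13 replication windows (30.8%) and in 27.8% of all windows. CCAAT was present in 14 of 16 mitosis windows and in 8 of 13 replication windows (61.5%), against 37.9% of all. Windows with both CHR and CCAAT made up 13 of 16 in mitosis (81.2%), 3 of 13 in replication (23.1%) and 10.9% of all. An E2F match and a CCAAT match overlapped in 1 member, and no other pair of motifs overlapped in a member. A match describes letters in the window and does not show that a factor bound there. The replication shares include the windows of Cdc6, Mcm7 and E2f1, which lie inside the gene. The E2f1 window held no E2F, CHR or CCAAT match, which leaves the DNA in front of that gene unread.

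Per kilobase of exon, the members differed widely in level. Pcna was the most abundant, with a mean of 131 CPM (read counts scaled to library size) per kilobase in the spleens and 74.0 in the lymph nodes. Mki67, whose product coats mitotic chromosomes and marks cycling cells, followed in spleen at 89.4, but stood at 27.6 in lymph node. Rrm2, the regulated subunit of ribonucleotide reductase, stood at 75.2 in spleen and 18.4 in lymph node. Ttk, a spindle checkpoint kinase, was the lowest in spleen at 4.10 CPM per kilobase, and Ccne2 was the lowest in lymph node at 1.24. The lowest count behind any value was 17 reads, for Ccne2 in 1 lymph node library. All other CPM values here are per library and not divided by gene length.

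**Figure D1:**
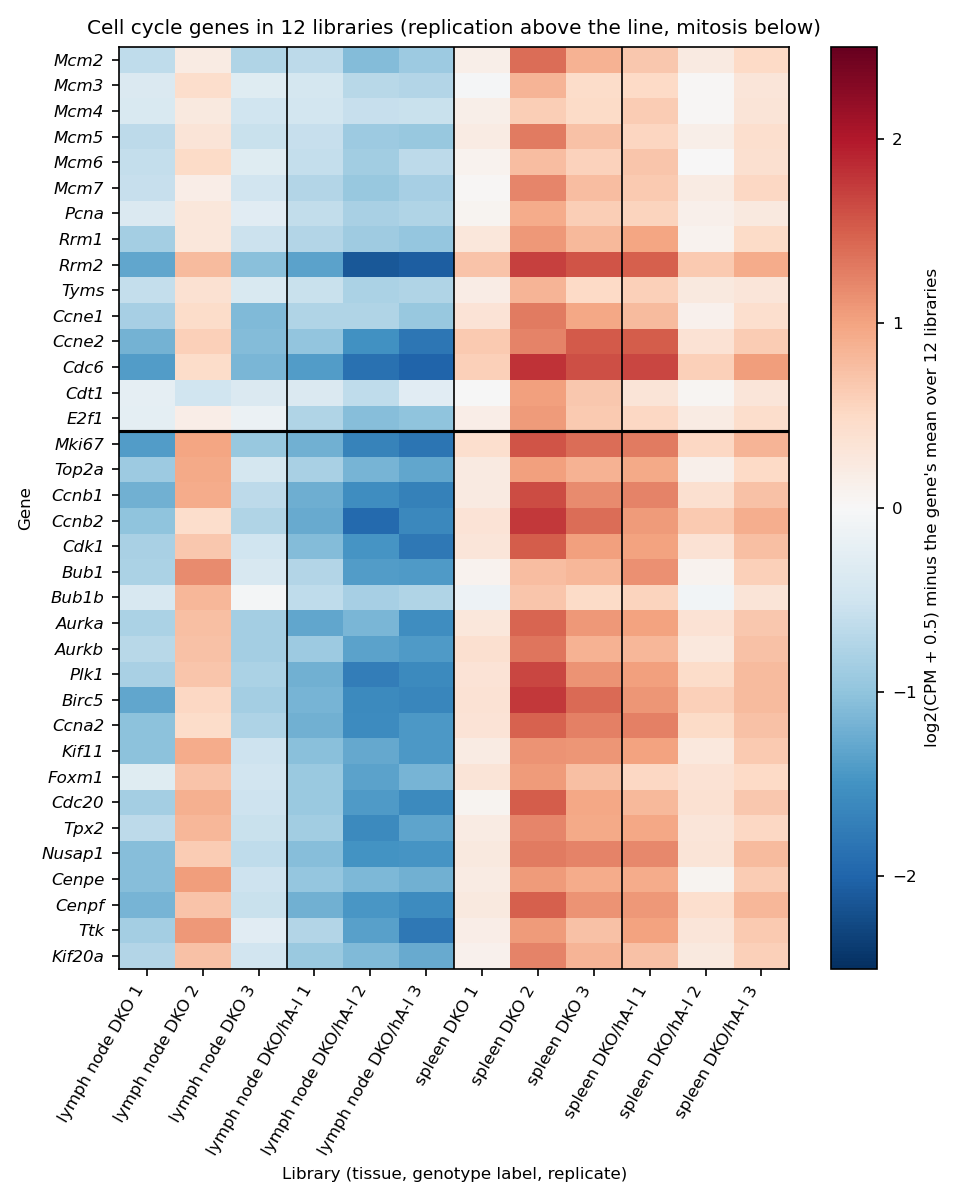
Level of each of the 36 genes (rows, by phase) in each of the 12 libraries (columns, by group), as log2(CPM + 0.5) minus the gene's mean over the libraries. The spleen libraries and the second DKO lymph node library lie mostly above the mean, and the other 5 lymph node libraries below it.

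Total counts ranged from 5911835 to 11950825 per library, and libraries of the same group differed by 10 to 59.9 times the counting noise (chi-square per degree of freedom), so none was a copy. Markers of spleen stroma (Tlx1, Nkx2-5 and Nkx2-3) had no count in any lymph node and summed to 51.9 to 71.06 CPM in the spleens, so the tissues carried their labels. The second DKO lymph node library stood apart from the other DKO lymph nodes, as the member values below show. This library also had the lowest total, 5911835 counts, against 11460854 and 11950825 in the other DKO lymph nodes. A ribosomal protein pseudogene that separates the genotypes, Rpl31-ps12, had 2094 counts in the DKO and 3 in the DKO/hA-I lymph nodes, but 5 in the spleens with the label DKO and 2162 in those with the label DKO/hA-I. It points in opposite directions in the 2 tissues, so every genotype direction below is that of the labels. The tissue comparisons within a genotype and the genotype by tissue term also pair the tissues by these labels. They would set unlike genotypes side by side if a label meant different genotypes in the 2 tissues, which was not tested. The spleen and lymph node comparison averages both genotypes with equal weight and does not depend on the labels.

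All 36 genes were higher in spleen than in lymph node. Mki67 averaged 987 ± 368 CPM (SD, n = 3) in the DKO spleens and 811 ± 223 in the DKO/hA-I spleens, against 408 ± 377 and 146 ± 35.0 in the lymph nodes. A gene was called where edgeR's quasi-likelihood test gave an adjusted p under 0.05 after Benjamini-Hochberg adjustment over all 14608 genes tested, of which 17.9% were called higher in spleen and 17.5% lower. The replication genes had a median log2 fold change of 1.11 (2.16-fold) and the mitosis genes of 1.46 (2.75-fold), against -0.02 over all genes tested. The range was 0.71 (Mcm3) to 2.46 (Cdc6) among the replication genes and 0.61 (Bub1b) to 2.08 (Ccnb2) among the mitosis genes.

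The licensing factors spanned the range of the replication genes. Cdc6 had 9.27, 34.9 and 11.1 CPM in the DKO lymph nodes, 9.29, 6.60 and 5.92 in the DKO/hA-I lymph nodes, 38.4, 89.2 and 78.0 in the DKO spleens and 81.4, 38.4 and 52.4 in the DKO/hA-I spleens. Every spleen was above every lymph node, although the second DKO lymph node at 34.9 came close to the lowest spleens. The log2 fold change of Cdc6 was 2.46 ± 0.34 (SE, adjusted p = 9.69e-05). Cdt1, which loads the helicase together with Cdc6 and is destroyed once synthesis starts, rose less, by 0.83 ± 0.15 (adjusted p = 0.000813). Its lymph node values were 45.1, 37.1 and 40.9 CPM in DKO and 40.6, 33.5 and 43.2 in DKO/hA-I, and the spleens held 52.6, 108 and 84.0 in DKO and 66.3, 54.7 and 64.7 in DKO/hA-I. Cdt1 was the only member that was not highest in the second library among the DKO lymph nodes. Among the helicase subunits the log2 fold changes were 1.29 (Mcm2), 1.16 (Mcm7), 1.11 (Mcm5), 0.84 (Mcm6), 0.75 (Mcm4) and 0.71 (Mcm3). Mcm2 had 74.5, 134 and 69.0 CPM in the DKO lymph nodes, 74.1, 54.6 and 61.8 in DKO/hA-I, and 128, 305 and 213, and 187, 136 and 166 in the corresponding spleens. For Mcm2 the second DKO lymph node lay among the lowest spleens.

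The genes that start and feed synthesis moved as follows. E2f1, the transcription factor that switches on many replication genes (Ensembl gene on chromosome 2, 154559407 to 154569892, minus strand, GRCm38), had 18.0, 24.0 and 19.4 CPM in the DKO lymph nodes, 12.4, 10.03 and 10.4 in DKO/hA-I, 24.0, 45.2 and 34.1 in the DKO spleens and 31.0, 24.8 and 29.1 in the DKO/hA-I spleens. The second DKO lymph node and the first DKO spleen were level at 24.0 CPM after rounding, the spleen being marginally higher, and no other lymph node exceeded 19.4. The rise was 1.06 ± 0.15 (adjusted p = 0.00011). Ccne2 rose by 2.09 ± 0.35 (adjusted p = 0.000444) and Ccne1 by 1.30 ± 0.26 (adjusted p = 0.00154). Rrm2 rose by 2.25 ± 0.35, with an adjusted p of 0.000251. Its DKO lymph nodes held 35.3, 153 and 42.2 CPM, its DKO/hA-I lymph nodes 34.6, 19.98 and 20.65, and its spleens 145, 288 and 263 in DKO and 248, 139 and 167 in DKO/hA-I. For Rrm2 the spleens were 139 or more, and 1 lymph node, the second of DKO, exceeded the lowest of them. The partner subunit Rrm1 rose by 1.25, Tyms, which makes thymidylate, by 0.90, and Pcna by 0.86.

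Among the mitosis genes, the drivers of entry lay in the upper part of the range. Ccnb2, a cyclin that activates Cdk1, had 14.7, 41.2 and 17.7 CPM in the DKO lymph nodes, 12.4, 7.41 and 9.46 in DKO/hA-I, 38.3, 104 and 80.5 in the DKO spleens and 63.8, 47.5 and 56.6 in the DKO/hA-I spleens. Apart from the second DKO lymph node, every lymph node was below every spleen, and the log2 fold change was 2.08 ± 0.28 (adjusted p = 8.81e-05). Ccna2 rose by 1.84, Ccnb1 by 1.75 and Cdk1 by 1.67. Foxm1, the transcription factor of the late genes, rose by 1.16 ± 0.20 (adjusted p = 0.000468). Mki67 rose by 1.87 ± 0.37 (adjusted p = 0.0014), with 161, 842 and 222 CPM in the DKO lymph nodes, 186, 134 and 119 in DKO/hA-I, 571, 1269 and 1121 in the DKO spleens and 1051, 611 and 771 in the DKO/hA-I spleens. Here too the second DKO lymph node lay among the spleens. Top2a, the topoisomerase that untangles sister chromatids, rose by 1.15.

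The spindle and checkpoint genes spanned most of the range of the mitosis genes, from 0.61 to 2.00. Birc5, a subunit of the chromosomal passenger complex, rose by 2.00, and its kinase Aurkb by 1.46. Plk1 rose by 1.81 and Aurka, the centrosomal Aurora kinase, by 1.64. The motors and spindle proteins rose by 1.72 (Cenpf), 1.69 (Nusap1), 1.39 (Kif11), 1.35 (Tpx2), 1.25 (Kif20a) and 1.20 (Cenpe), and Cdc20 rose by 1.45. Of the checkpoint kinases, Ttk rose by 1.27 and Bub1 by 1.14. Bub1b, their partner, had the smallest of all members, 0.61 ± 0.20 (adjusted p = 0.0325). For Bub1b the lymph nodes held 46.9, 110.3 and 59.6 CPM in DKO and 39.7, 34.6 and 36.7 in DKO/hA-I, and the spleens 56.9, 99.99 and 86.8, and 90.9, 58.8 and 77.7. For this gene the second DKO lymph node was above every spleen, and replicate 3 was above 2 spleens.

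With that library included, 3 of 36 members, Cdc6, Cdt1 and E2f1, had all 6 spleens above all 6 lymph nodes, beside 9.1% of all genes tested. The tissue difference was also read within each genotype label. In DKO/hA-I all 36 genes were called higher in spleen, beside 14% of all genes, and in all 36 the 3 spleens lay above the 3 lymph nodes (23.9% of all genes). The medians there were 1.31 for replication and 2.00 for mitosis. In DKO 18 of 36 were called higher, beside 11.5% of all genes, 12 of replication and 6 of mitosis (Ccnb2, Ccna2, Birc5, Plk1, Cdk1 and Nusap1), with medians of 1.02 and 1.05. In DKO all spleens lay above all lymph nodes in 5 members, Rrm1, Ccne2, Cdc6, Cdt1 and E2f1, beside 16.3% of all genes, and the tissues overlapped in all 21 mitosis genes. Without the second DKO lymph node, 35 of 36 were called in DKO, beside 14.4% of all genes, and the medians were 1.28 and 1.69. Leaving out other single DKO libraries gave 5 calls without lymph node replicate 1, 1 without lymph node replicate 3, and 24, 2 and 7 without spleen replicates 1, 2 and 3. Across the alternative settings of this comparison, 2391 to 4427 of all genes were called in either direction. The share for each left-out library is not given, so these counts cannot be set against it. The test of the difference between the genotypes' tissue effects is the genotype by tissue term given below, in which no member was called.

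**Figure D2:**
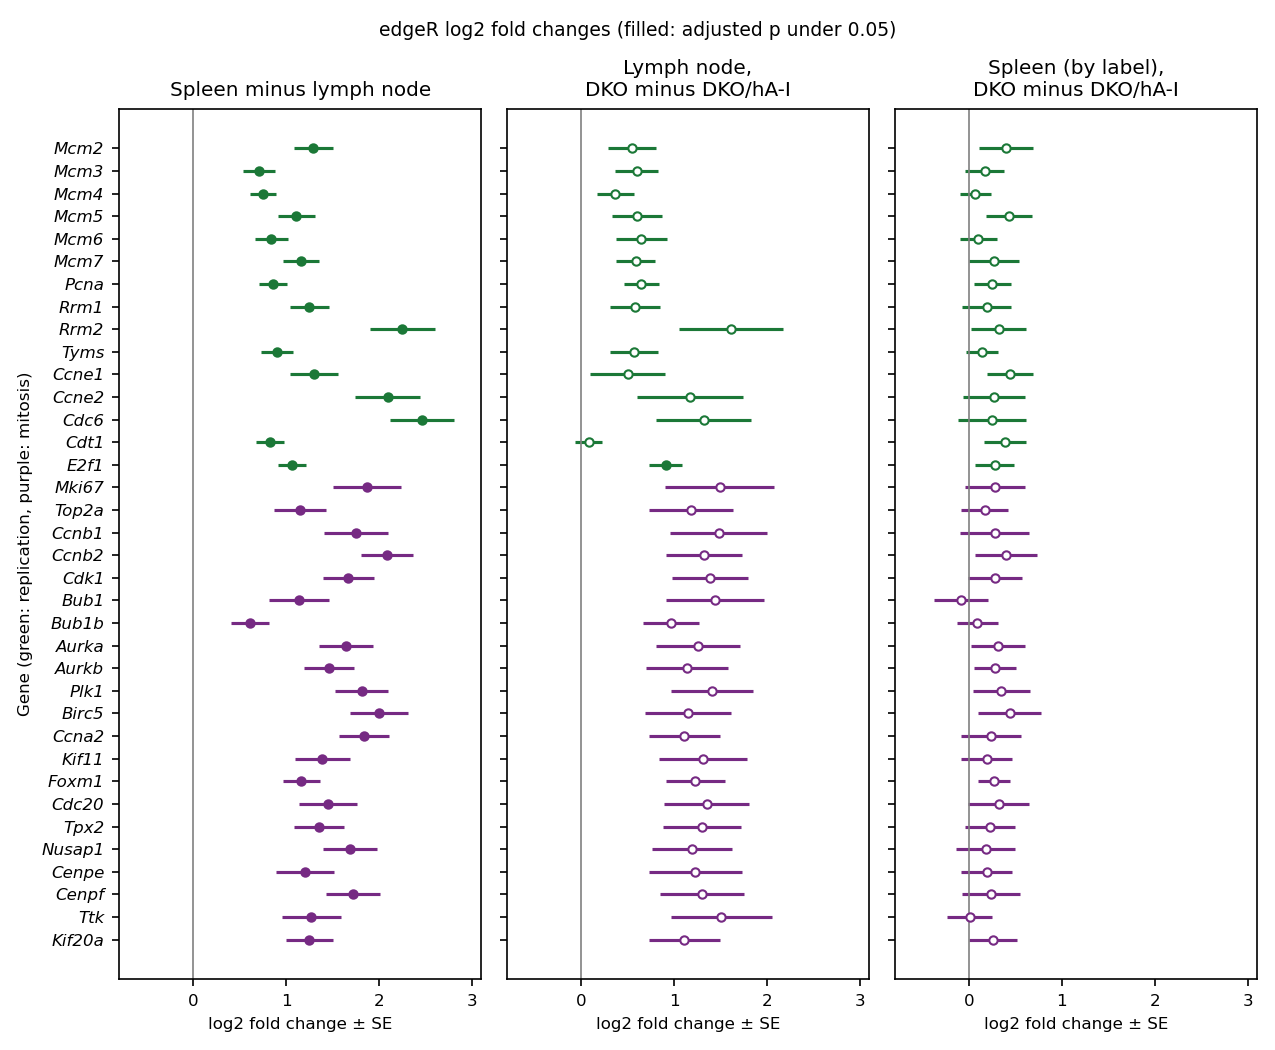
Log2 fold change of each of the 36 genes with its standard error, for spleen against lymph node (12 libraries) and for DKO against DKO/hA-I in each tissue (6 libraries each). All spleen against lymph node values are positive, from 0.61 to 2.46, and the lymph node genotype values of the mitosis genes lie between 0.97 and 1.51.

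Other genes of the same machinery, from lists fixed by function, were also higher in spleen. Over all genes tested 17.9% were called higher and 17.5% lower. Of 47 other replication genes 42 were called higher and none lower (median 0.86), led by Orc1 (2.59), the origin recognition subunit that varies over the cycle. Tk1, a thymidine kinase, rose by 1.41, Uhrf1, which maintains DNA methylation at forks, by 1.55, and Rad51ap1, a recombination factor, by 1.54. Of 55 other mitosis genes 51 were called higher and none lower (median 1.36). Ube2c, the ubiquitin-conjugating enzyme of the complex that Cdc20 activates, rose by 2.39 ± 0.31 (adjusted p = 5.67e-05), Anln, a cytokinesis scaffold, by 2.01, Kif14 by 1.99 and Kifc1, a spindle motor, by 1.77. Of 25 cyclins, kinases and factors of the E2F and DREAM complexes 15 were called higher and none lower (median 0.58). Tfdp2, a dimer partner of E2F proteins, rose by 2.67 ± 0.19 (adjusted p = 2.80e-07), E2f8 by 2.18, E2f2 by 1.74 and E2f4 by 0.90.

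The genes that hold the cycle back did not move in 1 direction. Of 20 such genes 5 were called higher and 6 lower in spleen (median 0.10), beside 17.9% and 17.5% of all genes tested. Cdkn1a, the p21 inhibitor of cyclin-dependent kinases, fell by 1.92 ± 0.22 on the log2 scale (log2 fold change -1.92, adjusted p = 2.09e-05), and Cdkn2a, a locus of senescence inhibitors, by 1.49. Gadd45a, a growth arrest gene, rose by 1.83 and Fzr1, which keeps the mitotic ubiquitin ligase active in resting cells, by 1.47. Cdkn1a had 104, 40.1 and 98.0 CPM in the DKO lymph nodes, 42.0, 28.4 and 35.8 in DKO/hA-I, 18.1, 11.6 and 17.5 in the DKO spleens and 13.2, 10.5 and 14.6 in the DKO/hA-I spleens. The DKO lymph nodes with high Cdkn1a were replicates 1 and 3, those with lower mitosis genes. In those 2 libraries the summed markers of lipid-laden macrophages were also highest, 6732 and 9313 CPM, against 1809 in the second DKO lymph node and 714.2 to 964.1 in the DKO/hA-I lymph nodes. Their part in the Cdkn1a values was not tested.

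Markers of other cells moved with the tissues. The 17 erythroid markers found in the tables were all called higher in spleen, with Hba-a1 and Hbb-b1, which encode globin chains, among the most abundant, and their sum was 9181 to 42870 CPM in the spleens and 119.7 to 447.3 in the lymph nodes. Megakaryocyte markers summed to 220.2 to 421.7 CPM in the spleens and 24.39 to 71.18 in the lymph nodes. Myeloid progenitor and granule genes summed to 272.1 to 1029 CPM in the spleens and 14.09 to 687.5 in the lymph nodes. B cell markers had overlapping sums of 3158 to 3873 in the spleens and 2303 to 4415 in the lymph nodes. Other lists were lower in spleen. T cell markers summed to 441.8 to 632.5 CPM in the spleens and 612.6 to 1304 in the lymph nodes. Those of lipid-laden macrophages summed to 297.5 to 348.2 against 714.2 to 9313, and those of adipocytes to 5.521 to 15.05 against 67.05 to 2278. The part of these cells in the tissue difference of the cell cycle genes was not tested.

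Mitosis genes took a larger share of the cell cycle RNA in every spleen than in 5 of the 6 lymph nodes, a comparison for which no test was made. The summed CPM of the 21 mitosis genes over that of the 15 replication genes was 1.09, 1.22 and 1.30 in the DKO spleens and 1.28, 1.16 and 1.21 in the DKO/hA-I spleens. In lymph node it was 0.737, 1.47 and 0.895 in DKO and 0.767, 0.699 and 0.634 in DKO/hA-I. Among the 12 libraries the second DKO lymph node had the highest ratio. Mki67 is the largest term of the mitosis sum; without it the ratio was 0.712 to 0.813 in the spleens, 0.969 in the second DKO lymph node and 0.474 to 0.664 in the other lymph nodes, so the order of these sets of libraries was the same.

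**Figure D3:**
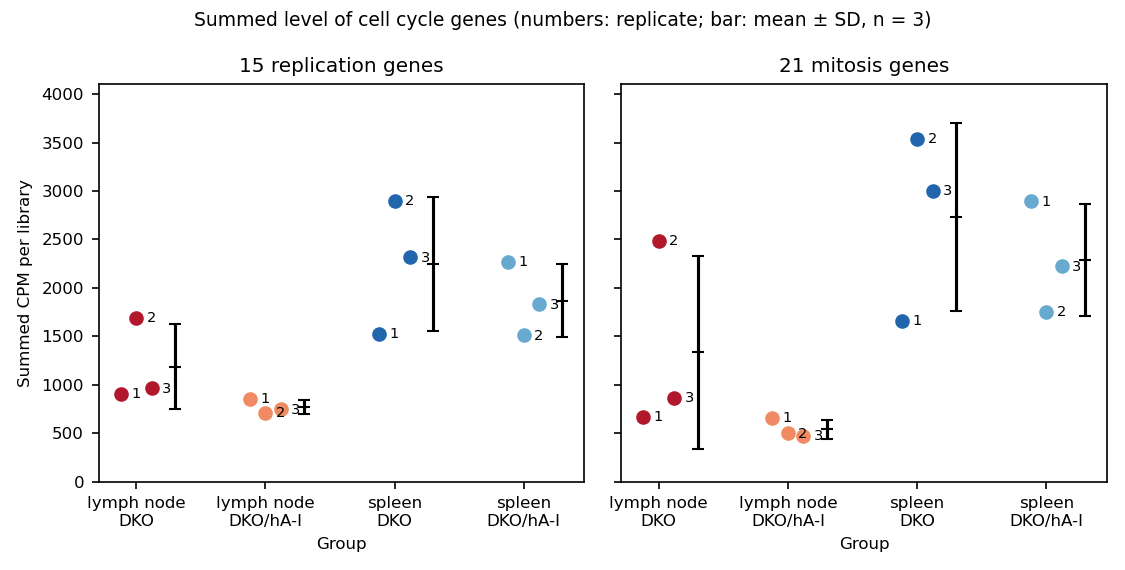
Summed CPM of the 15 replication genes (left) and of the 21 mitosis genes (right) in each library, by group, with the mean ± SD of the 3 libraries as bars. The mitosis sum of the second DKO lymph node is 2483, between those of the spleens (1657 to 3538), while the other lymph nodes hold 473.3 to 861.1.

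Between the genotypes in lymph node, E2f1 was higher in DKO and no other member was called. Its values of 18.0, 24.0 and 19.4 CPM in DKO lay above all of 12.4, 10.03 and 10.4 in DKO/hA-I, and the means were 20.5 ± 3.11 and 11.0 ± 1.30 (SD, n = 3). The log2 fold change was 0.91 ± 0.18, with an adjusted p of 0.031 over 14012 genes. With DESeq2 21 members were called higher, beside 8.49% of all genes, and 7 with edgeR when all 12 libraries shared 1 fit, beside 9.05% of all genes. Over all genes 3.95% were called higher in DKO by edgeR and 2.92% lower, so 1 call in 36 is near the background. All 36 members had a positive log2 fold change, against 51.6% of all genes. The median was 0.60 for replication (0.08 to 1.61) and 1.30 for mitosis (0.97 to 1.51), against 0.01 over all genes. At an unadjusted p under 0.05 there were 28 of 36, 7 of replication and all 21 of mitosis, beside 14.7% of all genes. The groups did not overlap in 20 members, 6 of replication and 14 of mitosis, beside 15.6% of all genes.

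The size of these differences in lymph node depended largely on 1 DKO library, the second. Relative to the mean of the other DKO lymph nodes its level was 2.07 (Bub1b) to 4.40 (Mki67) times as high for the mitosis genes. Among the replication genes it was 3.94 times as high for Rrm2, 3.68 for Ccne2, 3.42 for Cdc6 and 2.75 for Ccne1, 1.60 to 1.91 for the helicase subunits, 1.51 for Pcna and 1.28 for E2f1, but 0.863 for Cdt1. Without that library 6 members were called higher in DKO, beside 10.9% of all genes, and the medians fell to 0.27 for replication and 0.54 for mitosis. The 6 were E2f1 (0.78, adjusted p = 0.016), Foxm1 (0.77, 0.0155), Pcna (0.42, 0.0364), Cdk1 (0.81, 0.0432), Bub1b (0.54, 0.0328) and Plk1 (0.73, 0.0388). Without any 1 of the other 5 lymph node libraries, no member was called, E2f1 included.

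Of these, Foxm1 had an adjusted p of 0.0633 with all 6 lymph node libraries, at a log2 fold change of 1.23 ± 0.32. Its values were 27.3, 55.7 and 24.4 CPM in DKO and 17.6, 13.1 and 14.9 in DKO/hA-I, so that all 3 DKO lymph nodes were higher. Pcna had 179.8, 279.5 and 189.8 CPM in DKO and 149.9, 130.4 and 136 in DKO/hA-I, also without overlap, at 0.65 ± 0.19 (adjusted p = 0.0799). Cdk1 had 16.5, 47.1 and 20.8 CPM in DKO and 13.6, 10.2 and 8.17 in DKO/hA-I, at 1.39 ± 0.41 (adjusted p = 0.0855). In all of these DKO replicates 1 and 3 stood closer to the DKO/hA-I lymph nodes than to the second.

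Other members overlapped. For Mki67 the first DKO lymph node, at 161 CPM, lay below the first DKO/hA-I lymph node, at 186, and the log2 fold change was 1.49 ± 0.59 (adjusted p = 0.167). Ccne1 had 15.4, 38.8 and 12.8 CPM in DKO and 16.4, 16.4 and 14.3 in DKO/hA-I, with 0.50 ± 0.40 (adjusted p = 0.49), and -0.15 without the second DKO library. Cdt1, at 0.08 ± 0.14, was the member with the smallest difference. The other lists of the pathway were read in the same fit: of 47 other replication genes 2 were called higher, Tk1 (0.81 ± 0.15, adjusted p = 0.0258) and Gins2, a helicase cofactor (1.18 ± 0.26, adjusted p = 0.0388), with a median of 0.55. Over all genes 3.95% were called higher, so 2 of 47 is near the background. Of 55 other mitosis genes none was called by edgeR and 22 were called higher with DESeq2 (8.49% of all genes), while 41 had an unadjusted p under 0.05 on the higher side in edgeR (14.7% of all genes), with a median of 1.12. Kif2c, a microtubule-removing motor, and Mastl, a kinase of mitotic entry, had the smallest adjusted p there, 0.0599 and 0.081, at 1.5 and 1.22. None of the 25 cyclins, kinases and E2F or DREAM factors was called (median 0.31; Cks1b 1.19, adjusted p = 0.087, and Skp2 0.84, adjusted p = 0.0902). Of the 20 genes that hold the cycle back, Wee1, the kinase that inhibits Cdk1, was higher in DKO (1.17 ± 0.26, adjusted p = 0.0402) and Tob1, an antiproliferative protein, was lower (-1.61 ± 0.35, adjusted p = 0.0388). Such counts are near the shares of all genes called, 3.95% higher and 2.92% lower. With limma voom neither gene was called (adjusted p = 0.0558 for Wee1 and 0.0644 for Tob1). Without 1 library each, Wee1 was called only without DKO replicate 2 and Tob1 only without DKO/hA-I replicate 3, and Tk1 and Gins2 only without DKO replicate 2.

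The second DKO lymph node also differed from the others in its cells' markers. Plasma cell markers summed to 9345 CPM there, to 1993 and 2495 in the other DKO lymph nodes, and to 1910, 1225 and 1252 in DKO/hA-I, and Igj, the joining chain of secreted antibody, had 6198 CPM there against 1328 and 1632. Germinal centre B cell markers summed to 446.2 CPM there, to 149.6 and 167.5 in the other DKO lymph nodes and to 127.4 to 157.2 in DKO/hA-I. Myeloid progenitor and granule genes summed to 687.5 CPM there and to 14.09 to 148.6 in the other lymph nodes. The erythroid sum, 166, lay within the range of the other lymph nodes. Adipocyte markers summed to 726.8 to 2278 CPM in the DKO/hA-I lymph nodes and to 67.05 to 126.5 in the DKO lymph nodes. The part of these cells in the genotype values was not tested. The middle number of the animal code is 75 in all DKO lymph nodes and 76, 77 or 78 in the DKO/hA-I lymph nodes, so genotype and whatever this number marks cannot be told apart in lymph node.

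**Figure D4:**
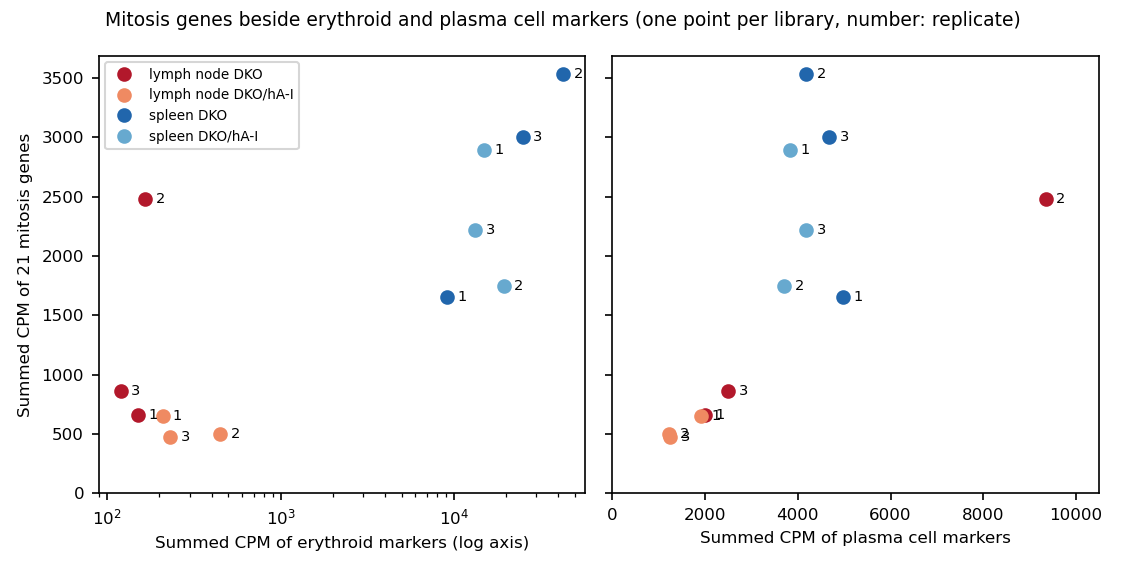
Summed CPM of the 21 mitosis genes in each library against the summed CPM of erythroid markers (left, log axis) and of plasma cell markers (right). The second DKO lymph node has the highest plasma cell sum, 9345, with an erythroid sum of 166, while the spleens have erythroid sums of 9181 to 42870.

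Between the genotypes in spleen, no member was called by edgeR among 14009 genes or by DESeq2 without a block, and none had an unadjusted p under 0.05, beside 4.4% of all genes. Over all genes 0% were called higher and 0.00714% lower. The log2 fold changes of DKO against DKO/hA-I, by label, were positive in 35 of 36 members (51.6% of all genes), with medians of 0.27 for replication and 0.26 for mitosis, and ran from -0.08 (Bub1) to 0.44 (Ccne1 and Birc5). The smallest adjusted p was 0.929. The groups overlapped in all 36 members, while 5.08% of all genes did not overlap with DKO higher and 5.53% with DKO lower. The standard error of Mki67, 0.28 ± 0.32, shows the precision that the spread of the 3 libraries left, and a difference of that size was not detectable.

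Within each spleen group the members moved together. By label, the mitosis sum was 1657, 3538 and 3002 CPM in the DKO spleens and 2893, 1749 and 2222 in the DKO/hA-I spleens. Over the spleens the highest member value was 1.52 (Mcm4) to 2.75 (Cdc20) times the lowest. The first DKO and the second DKO/hA-I spleens were low whereas DKO replicates 2 and 3 and DKO/hA-I replicate 1 were high. The erythroid sum was 9181, 42870 and 24920 CPM in DKO and 14870, 19370 and 13240 in DKO/hA-I, so within DKO it had the same order as the mitosis sum and within DKO/hA-I it did not. The middle number of the animal code crosses the genotypes in spleen. With this number as a block, Cdt1 was called higher in DKO (0.63, adjusted p = 0.0416), while 515 of all 14009 genes were called. With number 55 the third DKO spleen held 3002 and the first DKO/hA-I spleen 2893, with number 57 the second DKO spleen held 3538 and the other DKO/hA-I spleens 1749 and 2222, and with number 56 there was only the first DKO spleen. Without the first DKO spleen 2 members were called higher in DKO, Ccnb2 (0.70, adjusted p = 0.0472) and Birc5 (0.74, adjusted p = 0.0453). The share of all genes called in that fit is not given, so these 2 calls cannot be set against a background. The median over the members rose to 0.49 in the same fit. Without the second DKO spleen that median was 0.02. None of the genes of the 4 other cell cycle lists was called; Btg2, an antiproliferative gene, had the smallest p among the genes that hold the cycle back (0.35, adjusted p = 0.929).

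The genotype difference, by label in each tissue, was compared between the tissues in 1 fit of the 12 libraries. No member was called by edgeR or by DESeq2, beside 2.04% of all genes called higher in lymph node and 1.29% lower. At an unadjusted p under 0.05 there were 3, Bub1 (1.48 ± 0.65), Foxm1 (0.93 ± 0.39) and Ttk (1.46 ± 0.63), beside 9.58% of all genes, and the smallest adjusted p was 0.234, for Foxm1. The values were positive in 35 of 36 members and in 49.9% of all genes, with medians of 0.38 for replication and 1.00 for mitosis. Over the 36 members the median was 0.22 without the second DKO lymph node. The members' genotype difference was therefore not shown to differ between lymph node and spleen.

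The authors' deposited table of the genotype comparison calls 16 of the 36 members in lymph node, with a smallest q of 0.000691 for Rrm2, beside 5.5% of the 14012 genes tested here. E2f1 is not called in the authors' deposited table (p = 0.0329, q = 0.29). In spleen the authors' deposited table calls no member, with a smallest q of 1, beside 0.0571% of the genes tested here. Reads of 6 members could be shared with a neighbour, since their exons overlap those of another gene in the tables in GENCODE release 21 of the mouse (Mcm7, Ccne2, Ccna2, Cdc20, Nusap1 and Kif20a) and no strand setting is given. Pcna, Tyms, Ccnb1 and Ccnb2 have a named pseudogene, so their counts are uncertain to the extent that reads were divided between the copies. Of these pseudogenes, only that of Tyms was among the gene rows counted.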

How the data were processed

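Per the submitters' processing notes, reads were trimmed with Trimmomatic, and Bowtie, TopHat and Cuffdiff were used with the build GRCm38 (mm10); neither their versions nor the annotation, the counter or its strandedness is given in the sources used here. For each tissue the authors deposited 1 table of raw read counts per gene, per the file headers, together with a p-value and a q-value of their own genotype comparison. Differential expression was computed from the counts in R 4.3.3 with edgeR 4.0.16: filterByExpr (minimum count 10, minimum total 15), TMM scaling, robust quasi-likelihood fits, and Benjamini-Hochberg adjustment over all genes tested at 0.05. Genotype was fitted within each tissue (6 libraries), and tissue and genotype by tissue in 1 fit of 12. Log2 fold changes are DKO minus DKO/hA-I or spleen minus lymph node, with standard errors. CPM values are counts over the TMM-scaled library size of the fit of 12. Alternatives used DESeq2 1.42.0, limma 3.58.1 (voom), other scalings and filters, and left-out libraries. The test was checked on simulated data.

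The members and lists were chosen with earlier results of these data known. All 36 members are named; of each other list, up to 4 called genes by adjusted p, or up to 2 of smallest p; of the cell markers, the summed CPM. The labels do not say how RNA extractions were batched, so p-values reflect only how far these libraries differ.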

Additional observations from a re-analysis of the deposited data

Results flagged for a closer look

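Tob1, of the list of genes that hold the cycle back, had a genotype difference, by label, that differed between the tissues. The genotype by tissue term was -1.93 ± 0.42 (log2, edgeR's quasi-likelihood test, adjusted p = 0.0262). It was not called with limma voom (adjusted p = 0.0654), and leaving out 1 library each gave adjusted p from 0.00155 to 0.0789, with the call kept only without DKO lymph node replicates 1 or 2, DKO/hA-I lymph node replicate 3 or DKO spleen replicate 2. Tob1 had 14.2, 17.9 and 11.0 CPM in the DKO lymph nodes and 48.3, 59.9 and 23.2 in the DKO/hA-I lymph nodes, without overlap. In spleen it had 24.9, 17.8 and 24.5 CPM in DKO and 20.8, 16.8 and 16.6 in DKO/hA-I, with overlap. The adipocyte marker sums of the DKO/hA-I lymph nodes, 1775, 2278 and 726.8 CPM, had the same order as Tob1 there; their part in the result was not tested.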

How the results depend on the processing

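Counts of members called, of 36, under the alternatives were as follows. The lymph node genotype comparison had 1 call, 21 with DESeq2, 7 with all 12 libraries in the fit, 0 with the replicate block and 0 to 6 without 1 library each (6 without the second DKO library, 0 without any other); the cause was not tested. The spleen genotype comparison had 0 calls, 0 with DESeq2, 1 with the animal code block (Cdt1, 0.63, adjusted p = 0.0416) and 0 to 2 without 1 library each (2 without the first DKO library, 0 without any other). Spleen against lymph node in DKO had 18 calls, 34 when the second DKO library of both tissues was left out, an alternative chosen after seeing the data, and 1 to 35 without 1 library each: 5, 35 and 1 without DKO lymph node replicates 1, 2 and 3, and 24, 2 and 7 without DKO spleen replicates 1, 2 and 3. Of the other cell cycle lists in the lymph node genotype comparison, DESeq2 called 6 of 47 replication genes (2 with edgeR), 22 of 55 mitosis genes (0), 5 of 25 cyclins, kinases and E2F or DREAM factors (0) and 5 of 20 genes that hold the cycle back (2). Over all genes DESeq2 called 8.49% higher, and edgeR called 3.95% higher and 2.92% lower. The share that DESeq2 called lower is not given. Among the genes that hold the cycle back, DESeq2 called Wee1 higher (1.16) and Tob1 lower (-1.61), so 8.49% is not the full background of that count. Replicate numbers did not pair the libraries: same-numbered libraries' deviations correlated at -0.14, 0.03 and -0.03 in lymph node and -0.01, 0.12 and -0.10 in spleen. Genes called among all tested ranged from 115 to 2253 in lymph node (962 as reported) and from 1 to 515 in spleen (1 as reported). For spleen against lymph node in DKO they ranged from 2391 to 4427. Shares of all genes are not given for each left-out library, so the member counts above cannot be set against them. No called member changed direction, and no scaling moved the median of all genes by over 0.07. With 3 libraries a group, the genotype comparisons rest on the spread between few libraries, and the part of sequencing depth was not tested.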
